A study of Mus musculus with 17 samples.

Results

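Interferon-stimulated genes are the genes that cells switch on after an interferon binds its receptor, and 44 of them were followed through the aging mouse hippocampus. They were taken as a named list of gene symbols with no threshold on their values, although earlier results of these data were known when the list was drawn up, and each symbol was matched to the Ensembl identifier of the count tables, so that they are 44 of the 38355 identifiers counted. All libraries came from hand-dissected hippocampus of C57BL/6J wild type mice that received no treatment. In the single-end experiment, mice aged 3 months (3M, 5 libraries) were set against mice aged 24 months (24M, 6 libraries). In the paired-end experiment, other mice aged 3 months (3 libraries) were set against mice aged 29 months (29M, 3 libraries), which had been bought at 24 months and kept until then. No library was shared between the experiments, and the age of the old mice and the library type varied together, so that these cannot be told apart.

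Cells that sense foreign or misplaced nucleic acid release type I interferon, which binds a receptor on the same and on neighbouring cells. The receptor's kinases activate a complex that includes STAT2 and IRF9 and binds a promoter element called the interferon-stimulated response element (ISRE), whereas the response to interferon gamma acts at the gamma-activated site (GAS). The induced proteins detect viral RNA, block translation and viral entry, degrade RNA, or feed back on the receptor, and in brain they are made by microglia and, to a lower extent, by astrocytes, endothelial cells and neurons.

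The core of the response element lay in a larger share of the members' promoters than of all promoters. RefSeq promoters of GRCm38.p6, from 250 bases before to 50 bases after each start site, were matched for 32 of the 44 genes (36 promoters). The ISRE core, searched as GAAANNGAAA on either strand (TTTCNNTTTC when read on the other), lay in 20 of the 36 promoters (55.6%) and in 3.44% of all 32851 promoters. The GAS core, TTCNNNGAA, reads the same on both strands, and lay in 9 of the 36 (25%) and in 8.3% of all. Matches of the ISRE core that overlapped each other at a spacing of 6 bases were found in 5 genes, Bst2, Gbp3, Irgm1, Isg15 and Oas1a, and in 38 of all promoters, and an ISRE and a GAS match overlapped in Bst2 and Ifitm3. A match describes letters in this window and not a bound site. The stretches below hold the matches that lie before the start site, for some of the genes described later. Matches after the start site, as in Ddx58, Ifih1, Eif2ak2 and Ifitm3, are not shown. They run 5′ to 3′ along the gene and end before the RefSeq start site, and capitals mark the matched motifs. The gene positions given later come from GENCODE M21, whose starts can differ. By those positions the Irgm1 stretch lies inside the gene, and those of Gbp2 and Gbp3 reach past the start. The first 4 belong to genes called higher at both ages, the next 4 to genes called at 29M only, and the last 4 to genes called at neither age.
Ifit1 (chr19:34640765-34640833, + strand): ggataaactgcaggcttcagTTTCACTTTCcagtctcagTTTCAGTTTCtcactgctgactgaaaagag
Ifit3 (chr19:34583353-34583436, + strand): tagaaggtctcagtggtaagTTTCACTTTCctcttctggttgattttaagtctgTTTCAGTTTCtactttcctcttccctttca
Bst2 (chr8:71537567-71537628, - strand): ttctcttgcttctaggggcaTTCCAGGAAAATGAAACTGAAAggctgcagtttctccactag
Trim30a (chr7:104465200-104465249, - strand): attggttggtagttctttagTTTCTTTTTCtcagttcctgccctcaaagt
Gbp2 (chr3:142620584-142620633, + strand): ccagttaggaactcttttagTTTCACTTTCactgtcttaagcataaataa
Gbp3 (chr3:142559979-142560034, + strand): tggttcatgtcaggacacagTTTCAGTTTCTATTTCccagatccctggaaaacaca
Gbp7 (chr3:142530210-142530312, + strand): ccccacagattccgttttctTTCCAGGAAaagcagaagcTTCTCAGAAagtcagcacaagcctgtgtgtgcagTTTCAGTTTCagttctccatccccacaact
Irgm1 (chr11:48871421-48871470, - strand): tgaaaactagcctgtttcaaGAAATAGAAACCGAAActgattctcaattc
Isg15 (chr4:156200855-156200916, - strand): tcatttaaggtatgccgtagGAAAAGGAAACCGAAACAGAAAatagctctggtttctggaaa
Igtp (chr11:58199491-58199551, + strand): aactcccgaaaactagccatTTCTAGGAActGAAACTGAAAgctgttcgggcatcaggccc
Rsad2 (chr12:26456543-26456592, - strand): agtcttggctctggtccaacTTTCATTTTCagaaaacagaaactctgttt
Stat2 (chr10:128270256-128270305, + strand): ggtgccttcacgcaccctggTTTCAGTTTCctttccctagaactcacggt

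The ISRE core was found in 5 of 8 matched genes called at both ages, in 7 of 8 called at 1 age and in 7 of 16 called at neither or not tested. Lgals3bp, Oasl2, Zc3hav1 and Xaf1 were called at 1 or both ages and had no match in this window. Isg15 had 3 overlapping matches and was called at neither age.

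Many of these genes had more RNA in the aged hippocampus, and none was called lower. The quasi-likelihood test of edgeR was used, p-values were adjusted by Benjamini and Hochberg's method over all genes tested, and a gene was called where the adjusted p did not exceed 0.05 and the log2 fold change was 0.5 or more in either direction. At 24M, 38 of the 44 passed the filter on low counts, 13 were called higher and 0 lower, where 1.34% of the 15683 genes tested were called higher. At 29M, 36 were tested, 19 were called higher and 0 lower, against 1.34% of 15097 genes. The median log2 fold change of the members tested was 0.53 at 24M and 0.85 at 29M, beside medians of -0.003 and -0.002 over all genes tested. In bulk RNA, a change in the number of cells that express a gene and a change in RNA per cell cannot be told apart.

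The number of genes called depended on single libraries, at 24M more than at 29M. The 24M call count fell to 4 without 3M single-end replicate 1, to 5 without 3M single-end replicate 3, to 5 without 3M single-end replicate 4 and to 5 without 24M replicate 2, while the share of all genes called higher was 0.753%, 0.948%, 0.904% and 0.576% in those fits. It was also 5 without the pair of 24M replicates 1 and 4, with 0.708% of all genes called higher. With all 4 groups in 1 fit, 16 members were called at 24M and 8 at 29M, while the share of all genes called higher was 2.15% and 0.517%. Zc3hav1, Ifit3, Ifi27 and Trim30a were called at 24M in every fit that left out 1 library. At 29M between 13 and 26 members were called when 1 library was left out, and between 0.74% and 1.35% of all genes. The same 13 genes were called in each of those 6 fits: Ddx58, Ifih1, Zc3hav1, Ifit1, Ifit3, Ifi27, Rtp4, Oasl2, Bst2, Lgals3bp, Usp18, Gbp3 and Trim30a.

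**Figure D1:**
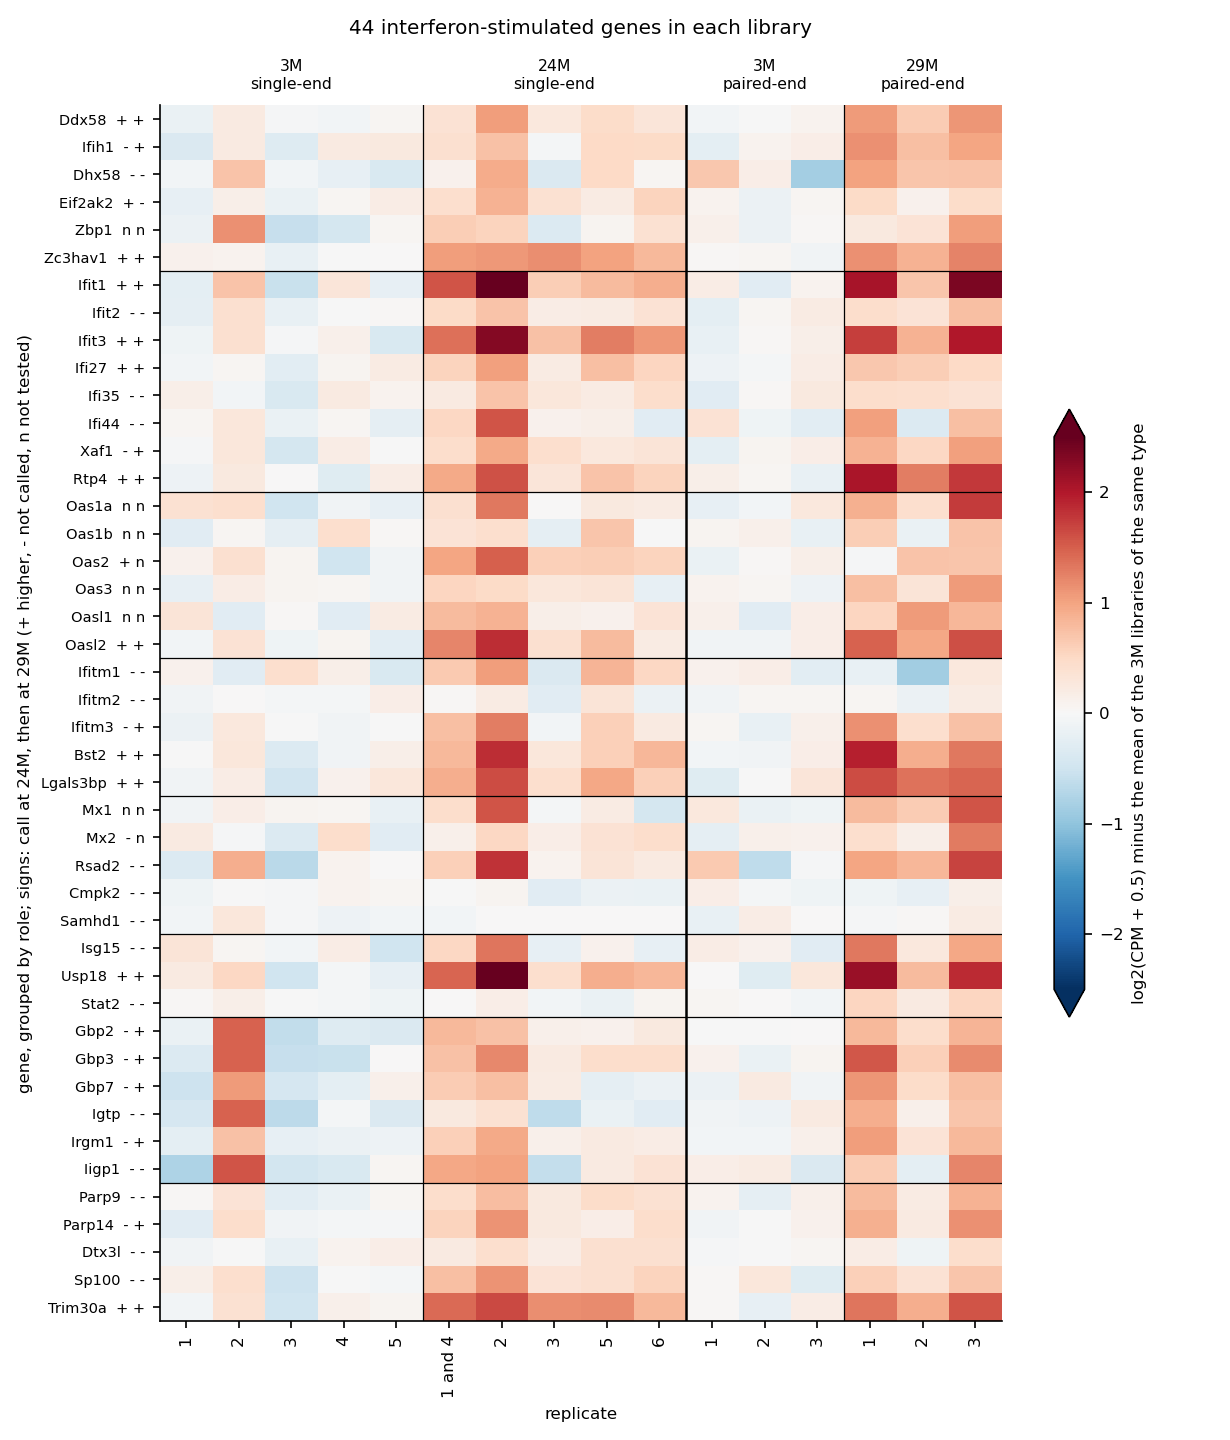
Each row is 1 of the 44 genes, grouped by role, and each column 1 library; colour gives log2(CPM + 0.5) minus the mean of the 3M libraries of the same type, cut at 2.5 on either side. Signs beside each name give the call at 24M and at 29M. The aged columns are mostly red, the GBP and IRG block is also red in 3M single-end replicate 2, and 24M replicate 2 is the darkest of its group.

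Reads assigned to genes numbered 19144461 to 28438296 per young single-end library and 9213474 to 19756411 per 24M library. In the paired-end experiment there were 10977976 to 15054972 per young library and 10991389 to 13563541 per 29M library. Depth thus differed with age in the single-end experiment, and the part of depth in the results was not tested. 24M replicates 1 and 4 differed by less than the sampling noise (their squared differences were 0.406 of what counting gives, and 1.23 in the next lowest of 136 pairs) and were counted as 1 sample, so that the 24M group has 5 samples. Replicates were separate mice as far as the study describes them, and p-values set the difference between groups against the spread between these samples. Hippocampal subfield markers summed to between 1005 and 1457 CPM (counts scaled to a library of 1000000) in all libraries, and all 8 were detected. Striatal markers summed to 588 CPM in 1 of the 3M single-end libraries, replicate 4, and to between 136 and 207 CPM in the rest. Choroid plexus markers ranged from 2040 to 8451 CPM.

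Among the RNA sensors and their partners, Zc3hav1 gave the steadiest increase. Zc3hav1 (chr6:38305286-38354603) encodes ZAP, which binds CpG-rich viral RNA and directs its decay. It was measured at 9.90, 9.81, 7.97, 9.06 and 9.18 CPM in the 3M single-end libraries and at 19.4, 20.0, 21, 18.9 and 16.5 CPM at 24M. The paired-end libraries gave 8.56, 8.76 and 7.90 CPM at 3M and 19.1, 15.7 and 20.6 CPM at 29M. Every aged library was above every 3M library, with no overlap in either experiment. Its log2 fold change was 1.07 ± 0.09 (SE) at 24M (edgeR adjusted p = 2.98e-05) and 1.14 ± 0.11 at 29M (edgeR adjusted p = 0.000117).

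Ddx58 and Ifih1 encode RIG-I and MDA5, the cytosolic sensors of double-stranded RNA that signal through MAVS. Ddx58 (chr4:40203773-40239828) was measured at 7.04 to 9.39 CPM at 3M and at 9.68 to 17.1 CPM at 24M, and at 5.59 to 6.28 CPM at 3M and 9.4 to 13.3 CPM at 29M. Its aged libraries lay above the 3M libraries in both experiments, and 24M replicate 2 was far above the other 24M samples. The log2 fold change was 0.54 ± 0.15 at 24M (edgeR adjusted p = 0.0496) and 1.02 ± 0.14 at 29M (edgeR adjusted p = 0.00182). The 24M call was lost in 9 of the fits that left out 1 library. Ifih1 (chr2:62595798-62646255) was measured at 5.13, 7.94, 5.29, 8.04 and 8.10 CPM at 3M and 9.03, 11.6, 6.49, 9.77 and 9.56 CPM at 24M, and at 3.90, 5.03 and 5.39 CPM against 11.1, 8.36 and 9.87 CPM at 29M. Only 24M replicate 3 fell inside the 3M range. Ifih1 was called at 29M (log2 fold change 1.03 ± 0.15, edgeR adjusted p = 0.00236) and not at 24M (0.43 ± 0.17, edgeR adjusted p = 0.137).

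Eif2ak2 was the sole member tested at both ages that was called at 24M only. Eif2ak2 (chr17:78852564-78882573) encodes PKR, the kinase that stops translation when it binds double-stranded RNA. It stood at 7.72, 10.1, 7.97, 9.42 and 10.3 CPM at 3M and at 12.3, 17, 12, 10.5 and 13.5 CPM at 24M. The paired-end libraries gave 11.4, 9.61 and 11 CPM at 3M and 15.0, 11.5 and 14.9 CPM at 29M. The aged libraries lay above the 3M libraries in both, although narrowly for 24M replicate 5 and 29M replicate 2. The log2 fold changes were 0.52 ± 0.13 (edgeR adjusted p = 0.0363) and 0.38 ± 0.12 (edgeR adjusted p = 0.109), and the call at 24M was lost in 6 of the fits that left out 1 library. Dhx58, the regulator LGP2, was not called at either age (log2 fold changes 0.35 ± 0.34 and 0.88 ± 0.37), and Zbp1, a Z-form nucleic acid sensor, was too low to be tested, with 4 to 31 reads per library.

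Stat2, Isg15 and Usp18 belong to signalling and its feedback. Stat2 (chr10:128270559-128292849), a transcription factor of the type I response, was measured at 22.6, 24.6, 22, 21.6 and 20.7 CPM at 3M and at 22.5, 24.9, 21.1, 19.8 and 23.5 CPM at 24M, ranges that overlap almost whole. At 29M it stood at 28.6, 23.3 and 28.7 CPM, above the 20.4, 19.9 and 18.9 CPM of its 3M group. Its log2 fold change was -0.0001 ± 0.07 at 24M (edgeR adjusted p = 1.0) and 0.45 ± 0.09 at 29M (edgeR adjusted p = 0.0125), where it passed the p threshold and not the fold threshold.

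Usp18, which removes ISG15 from proteins and damps the type I receptor, had the largest log2 fold change of all members at either age. Usp18 (chr6:121245906-121270917) stood at 0.954, 1.30, 0.388, 0.713 and 0.592 CPM at 3M and at 2.92, 6.97, 1.18, 1.86 and 1.72 CPM at 24M. In the paired-end experiment it stood at 1.19, 0.849 and 1.53 CPM at 3M and 6.97, 2.37 and 5.59 CPM at 29M. 24M replicate 3 lay within the 3M range and the 29M libraries lay above it. Fitted log2 fold changes were 1.90 ± 0.47 (edgeR adjusted p = 0.0353) and 2.12 ± 0.37 (edgeR adjusted p = 0.00612), and 4 of the fits that left out 1 library did not call it at 24M, those without 24M replicate 2 or young single-end replicate 1, 3 or 4. Isg15, the ubiquitin-like modifier itself, had log2 fold changes of 0.50 ± 0.33 (edgeR adjusted p = 0.352) and 1.11 ± 0.31 (edgeR adjusted p = 0.0757) and was not called.

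The IFIT proteins bind foreign 5′ ends of RNA and block their translation. Ifit1 (chr19:34640871-34650009), whose promoter stretch holds 2 ISRE cores, stood at 2.09, 4.57, 1.59, 3.31 and 2.17 CPM at 3M and at 8.61, 19.7, 4.22, 4.80 and 5.26 CPM at 24M. At 29M it stood at 13.4, 4.84 and 16.6 CPM, against 3.31, 2.22 and 3.05 CPM at 3M. At 24M replicate 3 lay under the highest 3M library, 3M replicate 2, and 24M replicate 2 was the highest of its group. The log2 fold change was 1.64 ± 0.42 at 24M (edgeR adjusted p = 0.0401) and 2.08 ± 0.36 at 29M (edgeR adjusted p = 0.00587), and the 24M call was lost in 5 of the fits that left out 1 library.

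Ifit3 (chr19:34583531-34588731) rose at both ages in every fit that left out 1 library. It stood at 3.27, 4.83, 3.49, 3.92 and 2.62 CPM at 3M and at 10.1, 19.3, 6.23, 9.38 and 8.16 CPM at 24M, and at 5.34, 6.34 and 6.91 CPM against 21.7, 11.7 and 26.3 CPM at 29M. No aged library overlapped a 3M library. These gave log2 fold changes of 1.55 ± 0.27 (edgeR adjusted p = 0.00852) and 1.70 ± 0.24 (edgeR adjusted p = 0.0016). Of the 50-base windows in its transcripts, 51.2% also occur in those of its neighbour Ifit3b, and of the 100-base windows 31.7%. Reads that aligned to more than 1 place were counted for no gene, so reads within such windows can be missing from both. Ifit3b itself was called with log2 fold changes of 1.53 and 1.34. Ifit2, with 0.40 ± 0.14 and 0.54 ± 0.14, was not called at either age (edgeR adjusted p = 0.0886 and 0.0532).

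**Figure D2:**
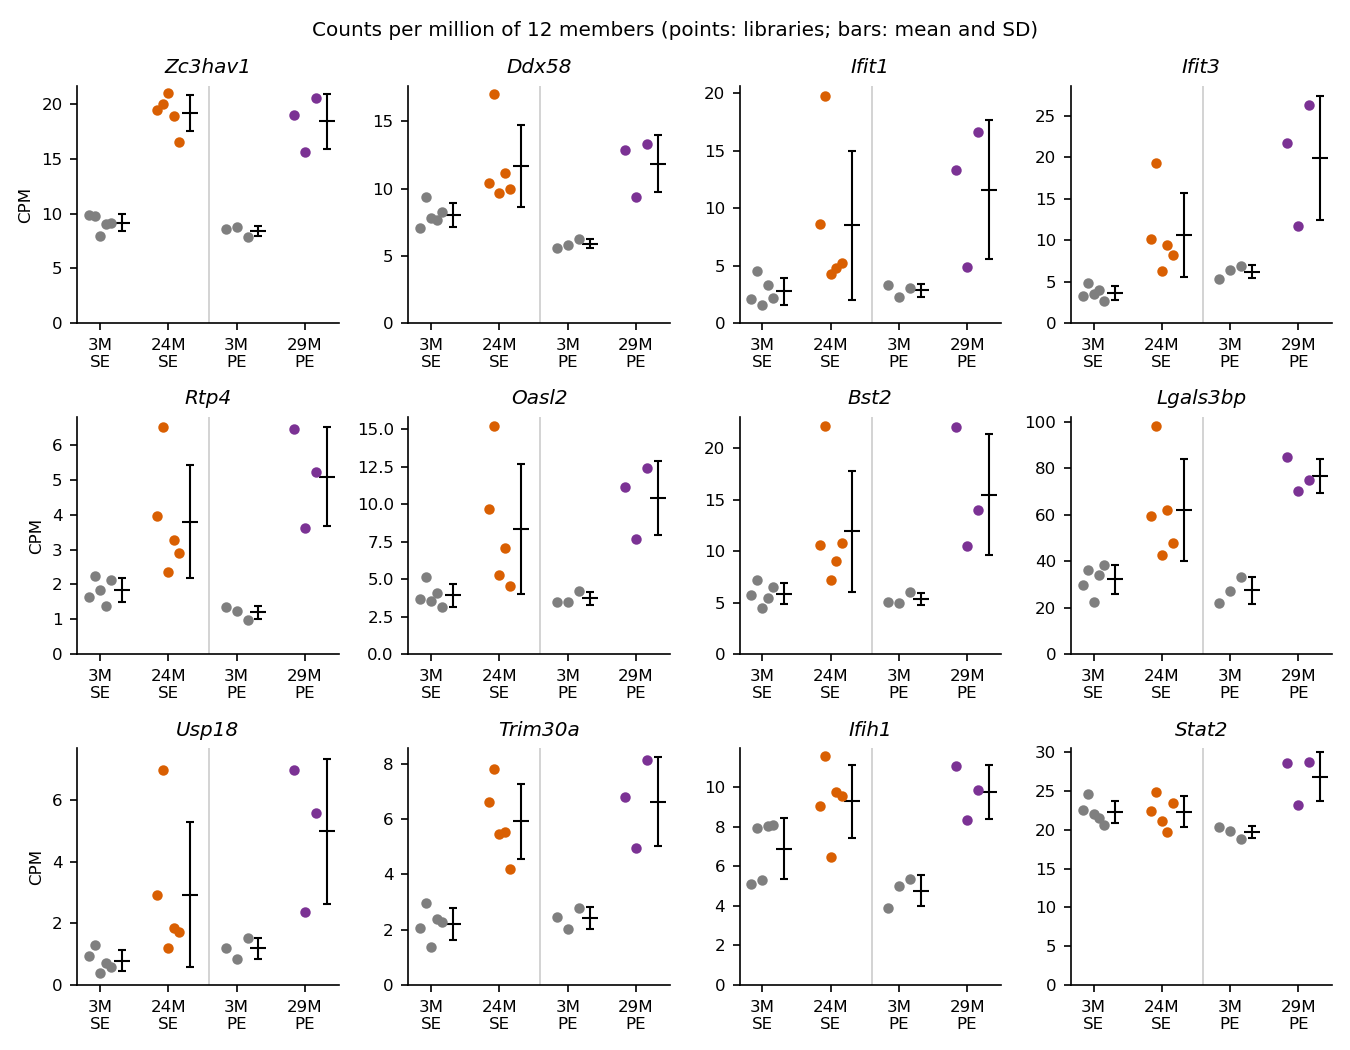
CPM of 12 members in each library (points), with the mean and SD of each group beside them; SE marks single-end and PE paired-end libraries. Zc3hav1, Ifit3 and Lgals3bp do not overlap between 3M and aged libraries in either experiment, 24M replicate 2 is the highest 24M point in most panels, and the Stat2 points overlap between 3M and 24M and not between 3M and 29M.

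The other small interferon-induced proteins moved less evenly. Rtp4 (chr16:23520291-23614222), a chaperone of G protein-coupled receptors that also restrains viral RNA, had the second-largest log2 fold change at 29M, where it stood at 6.47, 3.61 and 5.22 CPM against 1.36, 1.24 and 0.987 CPM at 3M. At 24M it stood at 3.96, 6.52, 2.37, 3.28 and 2.90 CPM against 1.64, 2.23, 1.84, 1.37 and 2.12 CPM at 3M. Aged libraries were above 3M libraries in both, at 24M by a narrow margin for replicate 3. The log2 fold changes were 1.04 ± 0.25 (edgeR adjusted p = 0.0336) and 2.09 ± 0.26 (edgeR adjusted p = 0.000732). The 24M call was lost in 4 of the fits that left out 1 library, and 11.6% of its 50-base windows occur in an overlapping annotated gene.
Ifi27 (identifier ENSMUSG00000064215, a mitochondrial protein, not its neighbour Ifi27l2a) had log2 fold changes of 0.64 ± 0.13 (edgeR adjusted p = 0.0172) at 24M and 0.60 ± 0.08 (edgeR adjusted p = 0.000926) at 29M. It stood at 38.0 to 52.3 CPM at 3M and 52.6 to 93.7 CPM at 24M, and at 42.8 to 52.7 CPM against 65.6 to 75.0 CPM at 29M, without overlap. Xaf1, an antagonist of apoptosis inhibitors, was called at 29M (0.88 ± 0.17, edgeR adjusted p = 0.0121, lost in 2 of 6 fits that left out 1 library) and not at 24M (0.53 ± 0.17, edgeR adjusted p = 0.077). Ifi35 and Ifi44 were not called at either age, and their log2 fold changes ran from 0.45 to 0.87.

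Of the OAS family, whose active members make 2-5 oligoadenylate that activates RNase L, all but Oas2 and Oasl2 were too low to be tested at either age. Oasl2 (chr5:114896936-114912234) stood at 3.68, 5.14, 3.53, 4.07 and 3.16 CPM at 3M and at 9.72, 15.2, 5.25, 7.06 and 4.51 CPM at 24M. At 29M it stood at 11.2, 7.69 and 12.4 CPM against 3.48, 3.46 and 4.22 CPM at 3M. 24M replicate 6 fell inside the 3M range, and at 29M no library did. Fitted log2 fold changes were 1.10 ± 0.28 (edgeR adjusted p = 0.0376) and 1.51 ± 0.18 (edgeR adjusted p = 0.000624), and the 24M call was lost in 4 of the fits that left out 1 library. Oas2 (chr5:120730333-120749853), at 0.409, 0.623, 0.388, 0.102 and 0.296 CPM at 3M and 1.18, 1.90, 0.772, 0.791 and 0.752 CPM at 24M, was called (1.53 ± 0.38, edgeR adjusted p = 0.0353, also lost in 4 of those fits) and was not tested at 29M, where its mean was 0.827 CPM against 0.445 CPM. Oas1a had 2 to 33 reads per library, Oas1b 3 to 15, Oas3 0 to 9 and Oasl1 1 to 13, and 57.6% of the 50-base windows of Oas1a occur in Oas1g.

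Bst2, tetherin, holds budding virus at the cell surface, and Lgals3bp is a secreted glycoprotein that binds galectins. Bst2 (chr8:71534255-71537456) stood at 5.77, 7.16, 4.45, 5.45 and 6.47 CPM at 3M and at 10.6, 22.1, 7.16, 9.04 and 10.7 CPM at 24M, where replicate 3 lay level with the highest 3M library. At 29M it stood at 22, 10.5 and 14.0 CPM against 5.09, 4.97 and 6.01 CPM at 3M, all aged libraries being higher. These gave log2 fold changes of 1.02 ± 0.26 (edgeR adjusted p = 0.037) and 1.55 ± 0.23 (edgeR adjusted p = 0.00234), and the 24M call was lost in 5 of the fits that left out 1 library.
Lgals3bp (chr11:118392751-118402092) had the smallest adjusted p of all members at 29M. It stood at 29.7, 36.0, 22.6, 33.9 and 38.4 CPM at 3M and at 59.3, 98.2, 42.5, 61.9 and 47.8 CPM at 24M, and at 22, 27 and 33.3 CPM against 84.6, 70.1 and 74.8 CPM at 29M. Aged and 3M libraries did not overlap in either experiment. The log2 fold changes were 0.95 ± 0.20 (edgeR adjusted p = 0.0197) and 1.48 ± 0.11 (edgeR adjusted p = 1.43e-05), and leaving out young single-end replicate 1 ended the call at 24M.

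The IFITM proteins, which keep viruses from fusing with endosomes, differed among themselves. Ifitm3 (chr7:141009586-141010770) stood at 8.09, 11.1, 8.96, 8.50 and 8.98 CPM at 3M and at 15.6, 22.6, 8.60, 14.0 and 10.6 CPM at 24M, and at 10, 8.43 and 10.6 CPM against 21.8, 13 and 16.3 CPM at 29M. At 24M replicates 3 and 6 overlapped the 3M libraries, and at 29M none did. It was called at 29M (0.83 ± 0.16, edgeR adjusted p = 0.0123, lost in 2 of 6 fits that left out 1 library) and not at 24M (0.65 ± 0.20, edgeR adjusted p = 0.0732). Ifitm2 had log2 fold changes of 0.05 at both ages, and Ifitm1 0.74 ± 0.32 at 24M and -0.23 ± 0.31 at 29M, neither called. Ifitm2 shares 48.5% of its 50-base windows with other genes, Ifitm3 a smaller share, and reads within such windows can be missing from their counts.

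The Mx GTPases, viperin and the nucleotide enzymes held no called member at either age. Rsad2, viperin, makes a chain-terminating nucleotide, and its log2 fold change was 0.78 ± 0.40 at 24M (edgeR adjusted p = 0.239) and 1.43 ± 0.36 at 29M (edgeR adjusted p = 0.0512), where its libraries stood at 3.44, 3.04 and 5.88 CPM against 2.63, 0.784 and 1.44 CPM at 3M. The 29M libraries lay above the 3M libraries. Cmpk2, its mitochondrial neighbour in nucleotide metabolism, and Samhd1, which breaks down deoxynucleotides, had log2 fold changes of -0.11 ± 0.07 and -0.01 ± 0.08 at 24M and of -0.04 ± 0.10 and 0.07 ± 0.10 at 29M. Both were well counted, with 177 reads or more in every library. Mx2 was not called at 24M (0.51 ± 0.29) and not tested at 29M, and Mx1 had 0 to 20 reads per library.

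The GBP and IRG genes encode GTPases that attack the membranes around intracellular pathogens and answer mainly to interferon gamma. At 29M 4 of the 6 were called, Gbp2, Gbp3, Gbp7 and Irgm1, and at 24M 0 of 6. Of the 6 fits at 29M that left out 1 library, 4 lost the call of Gbp2, 4 that of Gbp7 and 2 that of Irgm1. Gbp2 (chr3:142620602-142638008) stood at 5.09, 16.9, 3.60, 4.53 and 4.39 CPM in the 3M single-end libraries and at 10.5, 10, 6.33, 6.27 and 6.98 CPM at 24M. The paired-end libraries gave 4.41, 4.38 and 4.49 CPM at 3M and 8.15, 6.17 and 8.34 CPM at 29M. A single young library, 3M single-end replicate 2, was above every 24M sample, whereas the other 3M libraries were below all of them. Fitted log2 fold changes were 0.23 ± 0.38 at 24M (edgeR adjusted p = 0.738) and 0.78 ± 0.15 at 29M (edgeR adjusted p = 0.0134).

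The same young library was the highest of its group in all 6 of these genes. Gbp3 (chr3:142560026-142573209) stood at 3.91, 14.9, 3.21, 3.26 and 5.08 CPM at 3M and at 8.75, 12.3, 5.97, 7.01 and 6.98 CPM at 24M, and at 5.09, 4.12 and 4.94 CPM against 14.8, 7.31 and 11.3 CPM at 29M. Irgm1 (chr11:48861968-48871683) stood at 10.1, 20.3, 10.4, 10.8 and 10.9 CPM at 3M and at 18.5, 23.7, 13.1, 14.2 and 13.8 CPM at 24M, and at 9.41, 9.41 and 10.9 CPM against 20.8, 12.6 and 17.8 CPM at 29M. In both genes the 4 other young libraries lay below every 24M sample, and at 29M the groups did not overlap. Their log2 fold changes at 29M were 1.26 ± 0.22 (edgeR adjusted p = 0.00569) and 0.80 ± 0.15 (edgeR adjusted p = 0.0105). Gbp7 (chr3:142530342-142550149) stood at 4.54, 14.7, 4.87, 5.60 and 7.35 CPM at 3M and 10.7, 11.6, 7.88, 5.71 and 6.01 CPM at 24M, with overlap even without replicate 2, and at 4.66, 6.14 and 4.85 CPM against 11.7, 7.31 and 9.07 CPM at 29M, without overlap (0.83 ± 0.18, edgeR adjusted p = 0.0223). Igtp and Iigp1 were not called, with log2 fold changes of -0.30 ± 0.40 and 0.25 ± 0.48 at 24M and of 0.69 ± 0.20 and 0.76 ± 0.34 at 29M. Gbp7 shares 12.7% of its 50-base windows with other genes and Igtp 11.8% with Irgm2.

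3M single-end replicate 2 stood at 1.92 times the mean of the other 3M single-end libraries in Irgm1, 2.63 times in Gbp7, 3.84 times in Gbp2, 3.85 times in Gbp3, 3.87 times in Igtp and 4.47 times in Iigp1. Over all genes tested, 0.638% exceeded 2 times in this library. Outside these 6 genes, its ratio was 5.36 in Zbp1, 2.42 in Oas3, 2.14 in Oas1a and 2.09 in Oas2, all with 33 reads or fewer in every library. Its ratio was 2.47 in Rsad2, 2.32 in Dhx58, 2.0 in Ifit1 and 1.96 in Usp18. It was lowest in Oasl1 (0.376) and Ifitm1 (0.665). In Ifi35, Mx2, Cmpk2, Dtx3l, Ifitm2, Isg15 and Ifi27 the ratio lay between 0.912 and 1.04. Without this library 18 members were called at 24M, 12 of which are among the 13. The share of all genes called higher was 1.44% without it and 1.34% with it. Gbp2 (0.86 ± 0.18, edgeR adjusted p = 0.028), Gbp3 (1.07 ± 0.21, edgeR adjusted p = 0.0204), Irgm1 (0.65 ± 0.16, edgeR adjusted p = 0.0418), Ifit2, Parp9 and Sp100 were then called, and Ddx58 was not. Gbp7, Igtp and Iigp1 stayed uncalled (edgeR adjusted p = 0.133, 0.354 and 0.107). The library was singled out as the highest in these GTPase genes. Leaving it out was bound to raise their fold changes, so no conclusion is drawn from the added calls. The T cell markers summed to 5.03 CPM in that library and to 2.72 to 8.70 CPM in the other young single-end libraries, the B cell markers to 21.3 CPM and to 10.7 to 21.1 CPM, and the part of such cells in this result was not tested.

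**Figure D3:**
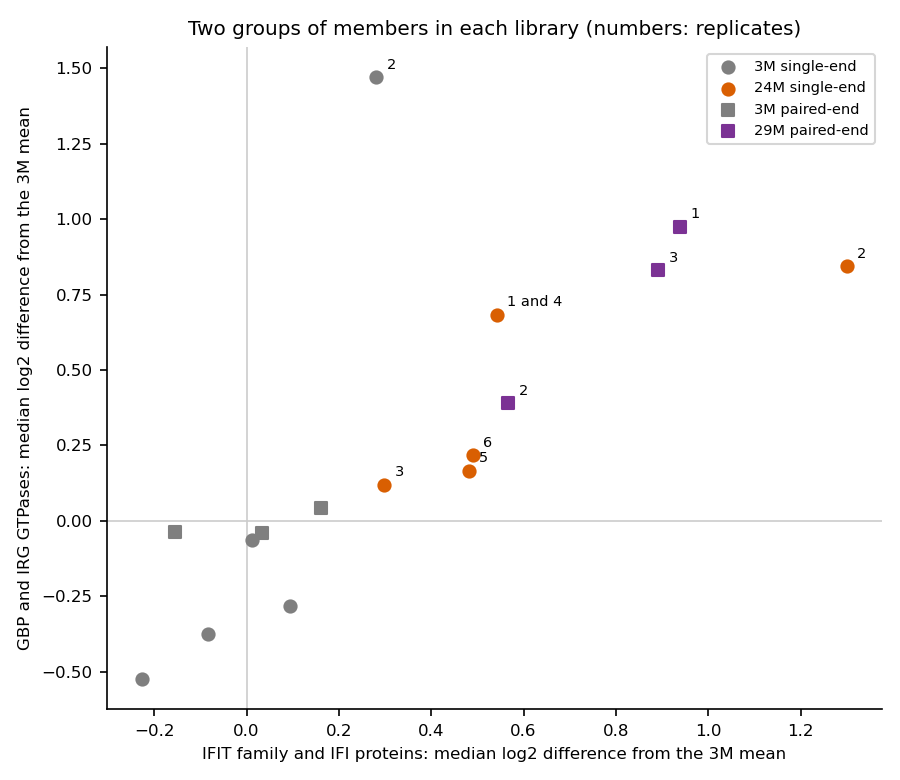
For each library, the median log2 difference from the 3M mean over the IFIT and IFI genes (horizontal) is set against that over the GBP and IRG genes (vertical); circles are single-end, squares paired-end, and numbers are replicates. 3M single-end replicate 2 stands apart at 1.47 on the vertical axis and 0.28 on the horizontal axis.

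Among the PARP, nuclear and TRIM proteins, Trim30a rose at both ages and Parp14 at 29M. Trim30a (chr7:104409025-104465193), a ubiquitin ligase that restrains innate signalling, stood at 2.04, 2.96, 1.38, 2.39 and 2.27 CPM at 3M and at 6.60, 7.81, 5.46, 5.54 and 4.19 CPM at 24M, and at 2.46, 2.03 and 2.78 CPM against 6.80, 4.94 and 8.13 CPM at 29M. No aged library overlapped a 3M library. These gave log2 fold changes of 1.45 ± 0.20 (edgeR adjusted p = 0.00236) and 1.48 ± 0.22 (edgeR adjusted p = 0.00213). Parp14 (chr16:35832874-35871544), an ADP-ribosyltransferase, stood at 4.09, 7.11, 4.80, 4.94 and 4.99 CPM at 3M and at 7.78, 11.8, 6.13, 5.76 and 7.09 CPM at 24M, and at 3.98, 4.18 and 4.58 CPM against 8.31, 5.03 and 9.94 CPM at 29M. It overlapped at 24M through 3M replicate 2 and did not overlap at 29M, with log2 fold changes of 0.57 ± 0.20 (edgeR adjusted p = 0.0928) and 0.90 ± 0.21 (edgeR adjusted p = 0.0391), the latter lost in 5 of 6 fits that left out 1 library. Parp9 and Dtx3l, whose proteins act as a pair and whose genes overlap, and the nuclear body protein gene Sp100 were not called at either age, with log2 fold changes of 0.34 to 0.71 at 24M and 0.22 to 0.75 at 29M.

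**Figure D4:**
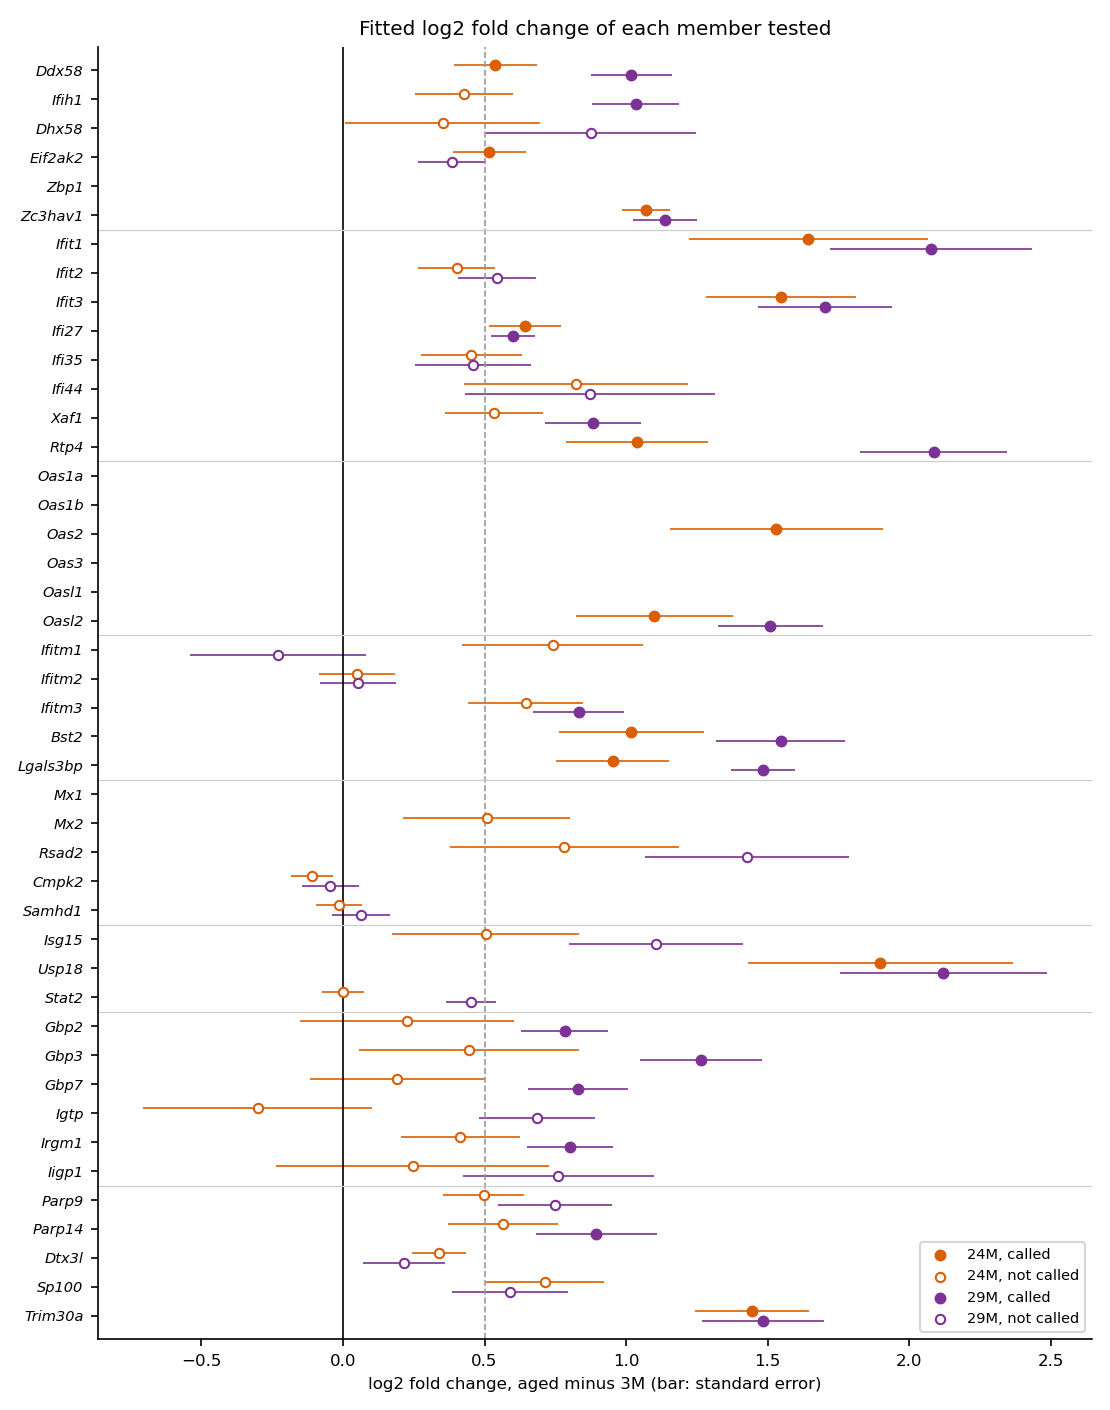
Log2 fold change of each member tested, aged minus 3M, with its standard error; orange is 24M, purple 29M, filled points were called, and genes without points were not tested. The dashed line marks 0.5; most points of both ages lie to the right of 0, and the largest are Usp18, Rtp4 and Ifit1 at 29M.

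In both experiments 36 members could be tested, and 11 passed as higher in each, where 0.571% of all genes tested at both were. They were Ddx58, Zc3hav1, Ifit1, Ifit3, Ifi27, Rtp4, Oasl2, Bst2, Lgals3bp, Usp18 and Trim30a. Ifih1, Xaf1, Ifitm3, Gbp2, Gbp3, Gbp7, Irgm1 and Parp14 were called at 29M only, Eif2ak2 at 24M only, and 16 at neither. Without regard to a test, the lowest aged sample exceeded the highest 3M sample in 10 members at 24M (3.15% of all genes tested) and in 28 members at 29M (11.9% of all genes tested, with fewer libraries to separate).

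A difference in effect between the ages was not shown for any member. The log2 fold change was larger at 29M in 31 of 36 members. In the test of the difference itself, across all 4 groups, 0 members and 0 genes passed the adjusted threshold in edgeR, and DESeq2 passed 1 gene. Before adjustment, 3 of 42 members had a p under 0.05, and 10.4% of all genes did. They were Stat2 (29M effect minus 24M effect 0.45 ± 0.12, edgeR adjusted p = 0.392), Rtp4 (1.05 ± 0.43, edgeR adjusted p = 0.414) and Ifih1 (0.60 ± 0.28, edgeR adjusted p = 0.466).

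In some libraries most members were high or low together. 24M replicate 2 was the highest of the 5 samples in 92.1% of the 38 members tested, and in 18% of all genes tested. In the same group, replicate 3 was the lowest in 63.2% of members and in 27.4% of all genes. 29M replicate 2 was the lowest of 3 in 91.7% of the 36 members, and in 34.8% of all genes. 3M single-end replicate 2 was the highest of 5 in 68.4% of members and 13.1% of all genes. The 3M paired-end group showed this less. There replicate 3 was the highest of 3 in 55.6% of members and 33.3% of all genes, and the lowest in 27.8% and 32.8%. Hemoglobin and erythroid markers summed to 544 CPM in 24M replicate 2 and to 76.3 to 159 CPM in the other 24M samples, to 155 CPM in 29M replicate 2 against 75.7 and 165 CPM, and to 108 CPM in 3M single-end replicate 2 against 53.2 to 85.7 CPM, and their part in the order of the libraries was not tested. Without 24M replicate 2, 5 members and 0.576% of all genes were called higher at 24M, and without 29M replicate 2, 26 members and 1.35% of all genes were at 29M.

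Interferon transcripts were at or near 0. Of the 17 interferon genes matched, 11 had no read in any of the 17 libraries, and the highest count of the rest was 1 read in a library. Ifng had 4 reads in all and Ifnb1 had 1. A count of 0 allows up to 3 reads, so that a change in interferon RNA was not detectable at this depth. None of the 6 receptor genes was called at 24M, and none of the 5 that could be tested was called at 29M. Ifnar1 stood at 46.7 ± 1.40 CPM (SD, n = 5) at 3M and 46.9 ± 2.15 CPM at 24M (n = 5), and at 47.9 ± 3.65 CPM and 44 ± 2.94 CPM at 29M (n = 3 each).

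Among the genes of receptor signalling, Irf9 rose at 29M by 0.74 ± 0.13 on the log2 scale (edgeR adjusted p = 0.00797), the feedback inhibitor Socs3 by 1.0 ± 0.25 (edgeR adjusted p = 0.0452) and the phosphatase gene Ptpn6 by 0.70 ± 0.16 (edgeR adjusted p = 0.0366). At 24M none of these was called, and Irf9 had a log2 fold change of 0.35 (edgeR adjusted p = 0.0865). Of 14 genes of nucleic acid sensing upstream of interferon, Tlr7, an endosomal RNA receptor, was called at 24M (0.67 ± 0.14, edgeR adjusted p = 0.0189), and Irf7, which drives interferon transcription (1.56 ± 0.24, edgeR adjusted p = 0.00274), and Trim25, which activates RIG-I (0.54 ± 0.10, edgeR adjusted p = 0.00801), at 29M.

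Further interferon-stimulated genes outside the 44 were also called in the higher direction. Of these, 5 of 40 tested were called higher at 24M and 11 of 42 at 29M, none lower. At each age 1.34% of all genes tested were called higher. The median log2 fold changes of this list were 0.27 and 0.56, beside -0.003 and -0.002 over all genes tested. Its calls in the fits that left out 1 library are not given here. The genes called at 24M were Ifi27l2a (1.71), Ifit3b (1.53), Ddx60 (0.92), Ube2l6 (0.79) and Trim12c (0.65). At 29M they were Ifi27l2a (2.0), Nlrc5 (1.39), Ifit3b (1.34), Irgm2 (1.32), Ddx60 (1.25), Psmb8 (0.87), Uba7 (0.77), Tap1 (0.65), Ube2l6 (0.64), Herc6 (0.63) and Parp12 (0.51). Ube2l6 and Uba7 encode enzymes that attach ISG15, Nlrc5 switches on MHC class I, and Tap1 and Psmb8 supply its peptides.

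Markers of several cell types moved beside the members. Microglia markers summed to 426 to 488 CPM at 3M and 533 to 562 CPM at 24M, and to 422 to 433 CPM against 529 to 546 CPM at 29M, with no overlap, and 1 of the 12 was called at each age. Their median log2 fold change was 0.35 at both ages, and that of the activated microglia markers was 0.90 at 24M and 0.75 at 29M, beside 0.53 and 0.85 for the members. Of 8 activated microglia markers, 8 were tested at 24M and 6 at 29M, so their 2 medians cover different genes. Activated microglia markers summed to 121 to 136 CPM and 150 to 171 CPM at 24M, and to 115 to 127 CPM and 133 to 151 CPM at 29M, with 3 called higher at each age, among them Clec7a and Itgax. Border macrophage markers, 0 of them called, summed to 7.31 to 11.1 CPM at 3M and 8.91 to 16.1 CPM at 24M, and to 7.37 to 10.7 CPM and 9.12 to 15.9 CPM at 29M. B cell markers summed to 10.7 to 21.3 CPM at 3M and 29.2 to 37.2 CPM at 24M, and to 13.1 to 14.5 CPM and 22.5 to 56.0 CPM at 29M. Of 6 B cell markers, 2 were tested at 24M and 1 at 29M. Ighm was called at both ages and Igkc at 24M. Hemoglobin and erythroid markers summed to 53.2 to 108 CPM at 3M and 76.3 to 544 CPM at 24M, and to 70.5 to 83.6 CPM and 75.7 to 165 CPM at 29M, with overlap in both experiments. Their median log2 fold changes were 1.32 at 24M, with 0 of 5 called, and 0.79 at 29M, with 2 of 5 called higher, Hba-a1 and Alas2.

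T cell markers were low everywhere, at 2.72 to 8.70 CPM and 3.50 to 4.65 CPM in the single-end groups and 2.71 to 3.86 CPM and 4.46 to 5.37 CPM in the paired-end groups, with 2 of 11 tested and 0 called. Cd8a, Cd8b1 and Gzmb were at 0 in all 3M paired-end libraries. Endothelial markers gave median log2 fold changes of 0.08 and -0.13 with 1 called lower at 24M, Cldn5. Astrocyte and neuron markers gave medians between -0.05 and 0.05 with none called. The part of these cells in the members' change was not tested.

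Per length, the members spanned a wide range of levels. With CPM divided by exonic length in kilobases (RPKM), 3M single-end means ran from 0.0117 for Oas3 to 31.2 for Ifi27, with a median of 1.02, and 22 of 44 lay above 1. Ifi27 (31.2 ± 3.64, SD, n = 5) was followed by Ifitm3 (13.5 ± 1.69), Lgals3bp (11.3 ± 2.18), Ifitm2 (7.56 ± 0.61), Bst2 (6.49 ± 1.14) and Cmpk2 (6.18 ± 0.33). In that order Ifi27 stood above Ifitm3, and Lgals3bp above Ifitm2, by more than 1 SD of each, whereas Ifitm3 and Lgals3bp, Ifitm2 and Bst2, and Bst2 and Cmpk2 overlapped within 1 SD. The lowest 10 members, from Usp18 at 0.28 RPKM down, include all 6 that were not tested at either age.

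**Figure D5:**
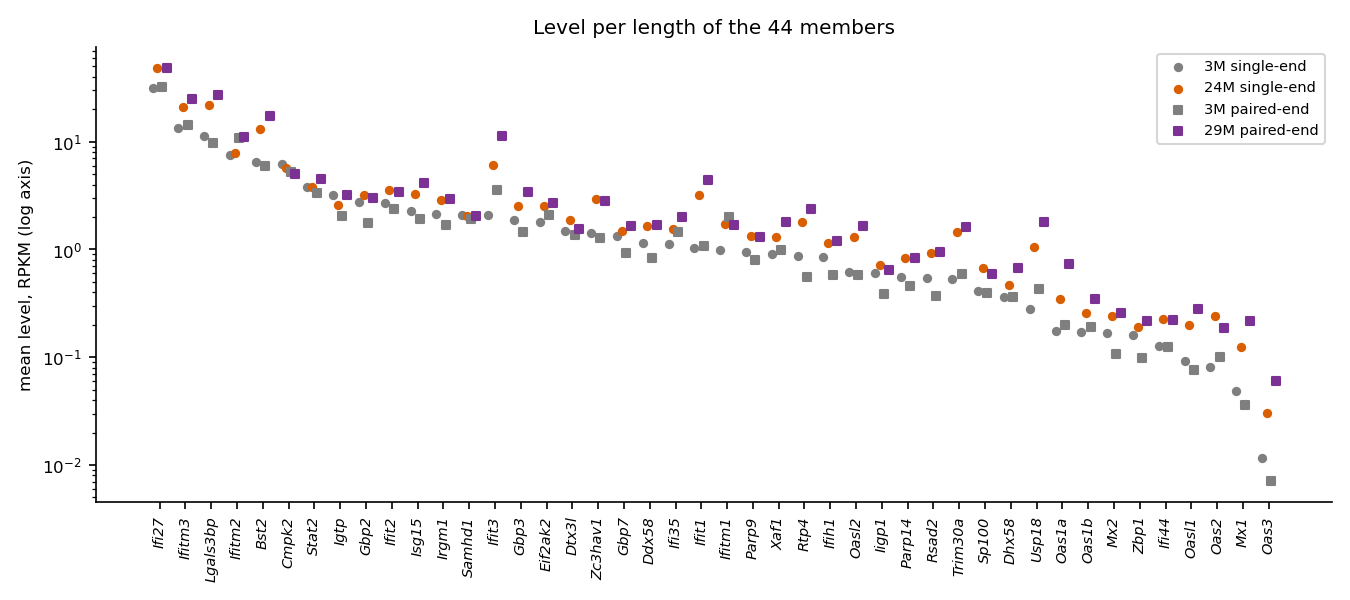
Mean level of each member per length (RPKM, log axis) in the 4 groups, ordered by the 3M single-end mean. Aged means lie above young means for most members, and Cmpk2, Samhd1 and Ifitm2 are exceptions in which the points nearly coincide within an experiment.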

How the data were processed

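RNA with poly(A) tails was sequenced in 17 hippocampal libraries (TruSeq). According to the submitters' processing notes and the study's methods, the authors mapped reads to GRCm38.p2 with STAR 2.3.0, counted them per Ensembl gene with HTSeq and tested them with DESeq2; the deposited values are raw counts. The annotation release and strand setting used for counting are not given in the sources used here, so reads of overlapping genes cannot be told apart. Lines naming no gene held 23.9% to 40.3% of a library's reads and were left out. Identifiers were named, placed and given exonic lengths from GENCODE M21 (GRCm38; 36602 of 38355 matched), and promoters came from RefSeq.

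Each aged group was fitted against the 3M group of its library type with edgeR 4.0.16 (R 4.3.3, TMM, filterByExpr, quasi-likelihood test, Benjamini-Hochberg adjustment over all genes tested); SE is the log2 fold change divided by the square root of F. CPM are counts scaled to 1000000 with TMM-adjusted library sizes. 24M replicates 1 and 4 entered as the rounded mean of their counts. Differences per library used log2(CPM + 0.5). The scripts were tested on simulated data. Same-numbered libraries correlated at -0.17 to 0.10 in their deviations from group means, so the numbers were not taken to pair them. Alternatives were DESeq2 1.42.0, its size factors, no or a stricter filter (1 CPM), all groups in 1 fit, a replicate block, no fold threshold, the 24M pair kept apart or left out, and each library left out. Members, gene lists and the naming rule were chosen with earlier results of these data known. By that rule values in every library are given for the 6 called members of each comparison with the largest non-overlapping change, members called lower, the 3 whose test of a difference between ages gave the smallest p, and up to 8 of at least 5 CPM whose call differed between ages; a few other members were added after their values were seen. One gene of the receptor signalling list is not reported here.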

Additional observations from a re-analysis of the deposited data

Results flagged for a closer look

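In groups of 5 samples, 15 of 76 member and group combinations had 1 sample set apart from the rest. The rule is set to flag about 1 in 20 by chance, or 3.8 of 76. Most flags fell in the same libraries, so the combinations were not independent, and no conclusion is drawn from the excess. The share of all genes flagged is not given here. The value given is the gap between that sample and its nearest neighbour as a share of the group's range. 24M replicate 2 stood apart at the top in Ddx58 (0.796), Ifit1 (0.717), Ifi44 (0.713), Xaf1 (0.78), Bst2 (0.761) and Rsad2 (0.82). These genes encode an RNA sensor, a translation block, tetherin and viperin among others, and come from 4 of the 8 roles into which the genes were sorted.

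3M single-end replicate 2 stood apart at the top in all 6 GBP and IRG genes, Gbp2 (0.888), Gbp3 (0.84), Gbp7 (0.723), Igtp (0.847), Irgm1 (0.923) and Iigp1 (0.809), and also in Dhx58 (0.779) and Samhd1 (0.788). Samhd1 was further set apart at the bottom in the merged 24M replicates 1 and 4 (0.918), in a group whose log2 fold change in this gene was -0.01. What set these libraries apart was not tested.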

How the results depend on the processing

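The count of members called at 24M was 13. It was 17 with DESeq2 (1.0% of all genes called higher), 13 with DESeq2's size factors (1.33%), 15 without a filter (1.0%) and 12 with the stricter filter (1.29%). It was 16 with all 4 groups in 1 fit (2.15%) and 16 with the 24M libraries kept apart (1.99%). The share was 1.34% in the fit that called 13. The count fell to 5 without the 24M pair (0.708%) and ranged from 4 to 18 when 1 library was left out (0.576% to 2.49%). With the replicate number as a replicate block it was 8, all among the 13, with 0.37% of all genes called higher against 1.34%. At 29M the block gave 22 in place of 19, with 1.34% of all genes called higher in either fit. However, only 29M replicate 3 correlated best with the 3M library of its own number. At 29M, 19 members were called, 20 with DESeq2 (0.556% of all genes), 19 with its size factors (1.34%) and 19 with the stricter filter (1.33%). The count was 29 without a filter (1.5%), 8 with all 4 groups in 1 fit (0.517%), and 13 to 26 when 1 library was left out (0.74% to 1.35%). The cause of these shifts was not tested. Members' median log2 fold changes ranged from 0.37 to 0.65 at 24M and from 0.74 to 1.04 at 29M when 1 library was left out. The count of members whose effect differed between the ages was 0 in each alternative run, leaving out each library included. Of the values of single named members under alternatives, 952 stayed on the same side of the threshold, 70 lost the call, 10 gained it, and 0 that were called changed sign. Values that were not called crossed 0 in some alternatives, as when 1 library was left out for Stat2 at 24M (-0.04 to 0.04) and for the 29M minus 24M difference of Gbp2 (-0.09 to 0.72), Ifit3 (-0.12 to 0.46), Ifitm3 (-0.04 to 0.40), Trim30a (-0.16 to 0.18), Usp18 (-0.11 to 0.80) and Zc3hav1 (-0.03 to 0.15). Depth limits the low members: 38 of 44 could be tested at 24M and 36 at 29M.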
